A study of Drosophila melanogaster with 8 samples.

Results

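The histone genes described here are the 10 transcripts of the authors' deposited table whose symbol begins with His and a digit: 3 copies of His1, 1 of His2A, 1 of His2B, 2 of His3 and 3 of His4, out of 16637 transcripts measured on each array. That table lists transcripts that differed at least 1.5-fold between wing discs of wildtype and BEAF-32 mutant larvae, so the members were chosen by the same difference that is described below, and the differences between genotypes are given without a test. All 10 are copies of the replication-dependent histone genes and together they cover all 5 types. Each is a separate gene in the table, and each was measured on all 8 arrays. The 2 transcripts of HisCl1, a histamine-gated chloride channel gene that only shares the first letters, fell outside the rule at log2 differences of 0.68 and 0.69. The smallest member difference in the authors' deposited table was 1.72-fold, for the His2B copy.

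Wing imaginal discs, epithelial pouches of the larva from which the adult wing and part of the thorax develop, were dissected from third-instar Drosophila melanogaster. The wildtype was Oregon R (spelt Orgon R in the labels), and the other genotype was homozygous for a mutation of BEAF-32, which encodes a chromatin boundary protein. The mutant samples carry the same strain label, larvae were matched for age, and the sources used here do not give the allele. Each genotype had 4 one-colour arrays, numbered 1_1, 1_2, 2_1 and 2_2. The design text gives 2 biological and 2 experimental replicates, but the labels do not say which number stands for which. Arrays that share the first number were averaged to 2 replicates per genotype, a grouping chosen because those arrays resembled each other most. Means are ± SD with n = 2. Since the labels do not tie replicates to separate animals, the spread may be biological, technical or both.

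Histones are the proteins around which DNA is wound. A pair each of H2A, H2B, H3 and H4 form the core of the nucleosome and H1 sits on the linker DNA between cores. In animals the replication-dependent histone genes are transcribed mainly during S phase, when new chromatin is assembled, and their mRNAs usually end in a stem-loop in place of a poly(A) tail. In Drosophila these genes lie in a tandem array of near-identical repeats, in which each full repeat carries 1 gene of each type. The cDNA was primed with oligo-dT, per the labels' protocols, so the signals report histone RNA that this priming captured. More histone RNA and a larger polyadenylated share of it cannot be told apart here, and in bulk tissue the number of cells that express a gene and the RNA per cell cannot be told apart either.

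In RefSeq's gene annotation of the fly (assembly Release 6 plus ISO1 MT) the 5 types have 111 protein-coding copies, all on chromosome arm 2L: 23 of His1, 20 of His2A, 23 of His2B, 23 of His3 and 22 of His4. All 10 members matched it by symbol. A group of 5 of them are neighbours and make up 1 complete repeat, in the order His1:CG31617, His2B:CG17949, His2A:CG31618, His4:CG31611 and His3:CG31613. The other 5 members come from 5 other repeats. Copies are so alike that probes of a transcript may also read other copies. The 10 signals therefore cannot be taken as independent genes and may be overlapping readings of the same array of genes. Copies that are not among the 10 were not analysed here. The replacement histone genes, such as the H2A.Z and H3.3 genes that are expressed outside S phase, were not among the members. BigH1 and cid were not among the named transcripts. Histone pseudogenes were looked for only under the bare symbol His-Psi, so whether any was named is not known. A gene that is not named can be unlisted because it differed by less than 1.5-fold or because it was not on the array.

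All 10 histone copies had a higher signal in the mutant than in the wildtype, by 0.78 to 1.67 on the log2 scale (1.72-fold to 3.19-fold), with a median of 1.14. The median over all transcripts was 0.06. Averaged over copies, the difference was largest for His3 (1.55), followed by His2A (1.23), His1 (1.18) and His4 (1.03), and smallest for His2B (0.78). His2A and His1, neighbours in this order, were closer to each other than the His1 copies were among themselves. The wildtype replicates also differed from each other in all 10 copies, with replicate 1 below replicate 2 by 0.58 to 1.23. In the mutant the replicates lay within 0.16 of each other.

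Histone H1, the linker histone, is represented by 3 copies. His1:CG31617 (gene FBgn0051617) read 12.58, 12.55, 13.62 and 13.58 on wildtype arrays 1_1, 1_2, 2_1 and 2_2, and 14.38, 14.22, 14.37 and 14.40 on the mutant arrays in the same order. Every mutant array was above every wildtype array, and wildtype replicate 2 was above wildtype replicate 1. The means were 13.08 ± 0.73 in the wildtype and 14.35 ± 0.06 in the mutant, a log2 difference of 1.26.

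His1:CG33834 (FBgn0053834) read 12.86, 12.83, 13.88 and 13.88 on the wildtype arrays and 14.50, 14.45, 14.49 and 14.54 on the mutant arrays. His1:CG33855 (FBgn0053855) read 12.75, 12.67, 13.67 and 13.81 on the wildtype arrays and 14.37, 14.27, 14.45 and 14.44 on the mutant arrays. Neither copy overlapped between genotypes, and both showed the same order of replicates as His1:CG31617. Their log2 differences were 1.13 and 1.15, so the 3 copies spanned 1.13 to 1.26.

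H2A and H2B pair with each other in the core, and each had a single member. His2A:CG31618 (FBgn0051618) read 13.37, 13.27, 14.16 and 14.13 on the wildtype arrays and 14.96, 14.90, 15.02 and 14.96 on the mutant arrays, a log2 difference of 1.23 (13.73 ± 0.58 against 14.96 ± 0.05). His2B:CG17949 (FBgn0061209) read 13.72, 13.81, 14.39 and 14.30 on the wildtype arrays and 14.90, 14.82, 14.84 and 14.78 on the mutant arrays, a log2 difference of 0.78 (14.05 ± 0.41 against 14.84 ± 0.03). Both genes were without overlap between genotypes. The His2B copy had the smallest difference of the 10 against either wildtype replicate, and also the smallest difference between the wildtype replicates. The mutant signals of these genes came within 0.33 and 0.47 of the highest value on an array, closer than any other member did. Whether signals near the top of the range were compressed was not tested.

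H3 and H4 form the tetramer at the centre of the nucleosome. His3:CG31613 (FBgn0051613) read 11.45, 11.33, 12.60 and 12.64 on the wildtype arrays and 13.77, 13.62, 13.67 and 13.64 on the mutant arrays. Its log2 difference of 1.67 (12.003 ± 0.87 against 13.68 ± 0.03) was the largest of the 10. The second copy, His3:CG33818 (FBgn0053818), read 11.80, 11.61, 12.70 and 12.69 on the wildtype arrays and 13.63, 13.47, 13.66 and 13.77 on the mutant arrays, a log2 difference of 1.43. The genotypes did not overlap in either copy. The span of 1.43 to 1.67 was wider than that of the copies of His1 or of His4.

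The 3 copies of His4 had nearly equal differences. His4:CG31611 (FBgn0051611) read 12.79, 12.73, 13.46 and 13.37 on the wildtype arrays and 14.11, 14.04, 14.17 and 14.14 on the mutant arrays. His4:CG33869 (FBgn0053869) read 12.69, 12.65, 13.30 and 13.42 on the wildtype arrays and 14.03, 13.92, 14.05 and 14.09 on the mutant arrays. His4:CG33891 (FBgn0053891) read 12.69, 12.82, 13.48 and 13.50 on the wildtype arrays and 14.19, 14.08, 14.21 and 14.19 on the mutant arrays. All of them were without overlap between genotypes, and their log2 differences were 1.03, 1.0 and 1.04.

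**Figure D1:**
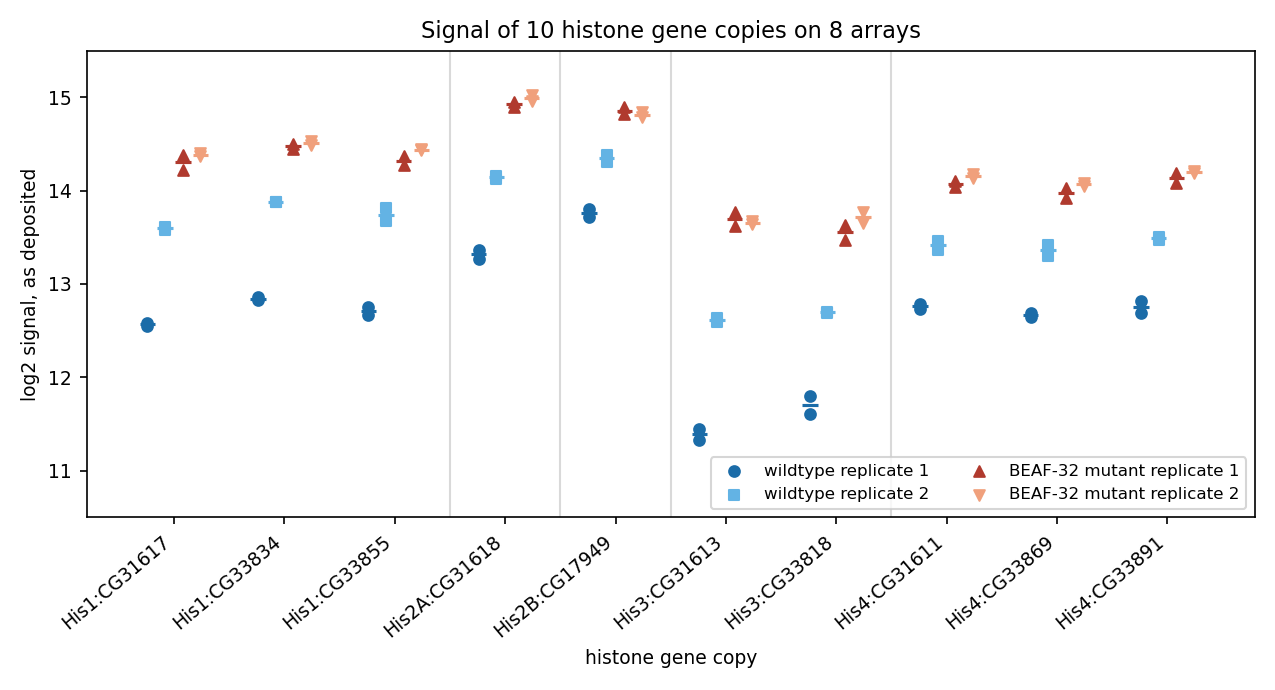
Log2 signal (vertical axis, as deposited) of each histone gene copy on each of 8 arrays, with 2 arrays (points) and their mean (line) per replicate and copies grouped by histone type. In all 10 copies wildtype replicate 1 is lowest, wildtype replicate 2 lies between, and both mutant replicates lie together at the top.

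For all 10 copies every mutant array lay above every wildtype array. The same was true of 26.8% of all transcripts and of 84.4% of the transcripts that the authors' table names as higher in the mutant, and since that table chose the members, their count says nothing more. For the same reason no p-value is given per member. In limma, fitted across all 16637 transcripts with genotype as the only term, 0 of the 10 had an adjusted p under 0.05, where 9.97% of all transcripts passed (3.89% as higher and 6.08% as lower), and all 10 had an unadjusted p under 0.05, as did 13% of all transcripts in the same direction and 69% of those named as higher in the mutant. The count of 0 changed with the model. It was 10 with a random block on the first number, 8 with an intensity trend, 6 with the first number as a replicate block and 0 with quantile-normalized arrays. Nothing is read from these counts, since the rule used the same contrast.

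How large the difference was depended on which wildtype replicate was taken. Against wildtype replicate 1 alone the log2 differences were 1.07 to 2.29 with a median of 1.65, and against wildtype replicate 2 alone they were 0.49 to 1.06 with a median of 0.69. As folds, His3:CG31613 was 4.88-fold higher than in wildtype replicate 1 and 2.08-fold higher than in wildtype replicate 2, and His2B:CG17949 was 2.11-fold and 1.41-fold higher. The direction was the same against both replicates for every copy, which the choice of members nearly fixed in advance. Of the 2195 transcripts named as higher in the mutant, 99.95% were above wildtype replicate 1 and 98.7% above wildtype replicate 2. Both readings share the mutant arrays and are shown side by side for that reason.

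**Figure D2:**
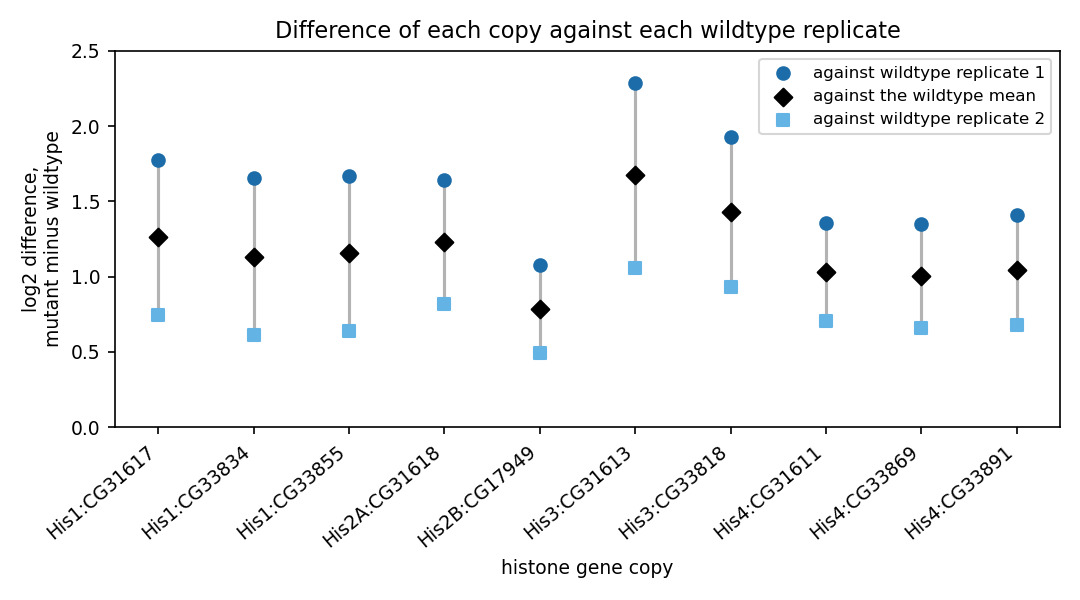
Log2 difference (vertical axis) of the mutant mean from wildtype replicate 1 (circles), from wildtype replicate 2 (squares) and from the mean of both (diamonds), for each histone gene copy. Every copy stays above 0 against either replicate, as nearly all transcripts named as higher in the mutant do. The His3 copies are highest and the His2B copy lowest in each of the 3 readings.

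The rule did not use the difference between the wildtype replicates, but a transcript that is low in 1 wildtype replicate is more readily listed as higher in the mutant. The difference ran the same way in all 10 copies, with replicate 2 above replicate 1 by a median of 0.91. Over all transcripts the median was -0.03 and 45.9% were higher in replicate 2, and over the 2195 transcripts named as higher in the mutant the median was 0.22 and 61.2% were higher in replicate 2. His3:CG31613 differed by 1.23, the His1 copies by 1.03 to 1.04, His3:CG33818 by 0.99 and His2A:CG31618 by 0.83. The His4 copies differed by 0.65 to 0.74 and His2B:CG17949 by 0.58. Arrays of 1 replicate differed by at most 0.20 in any member, so in every copy the step between wildtype replicates was larger than that between arrays of the same replicate.

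A step at least as large as the smallest among the members was found in 10.2% of all transcripts. Among the 953 transcripts whose mean signal was at least that of the dimmest member the share was 5.46%, and among those named as higher in the mutant it was 33.1%. The members thus share the order wildtype replicate 1, wildtype replicate 2, mutant, with no overlap between the 3 sets of arrays, with 14.2% of all transcripts and 44.1% of those named as higher in the mutant. The arrays of wildtype replicate 1 had a wider distribution of signals than the others. After the 8 arrays were given the same distribution, the step between wildtype replicates was 0.57 to 1.37 for the members, with a median of 0.96, and the mutant lay 0.53 to 1.05 above wildtype replicate 2.

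Wildtype replicate 2 lay between wildtype replicate 1 and the mutant for every type, near the middle of the way except for His1, where it was nearer the mutant. The mean over the 3 His1 copies was 1.03 higher in wildtype replicate 2 than in replicate 1 and 0.67 higher again in the mutant. For His2A the steps were 0.83 and 0.82, for His2B 0.58 and 0.49, for the His3 copies 1.11 and 1.0, and for the His4 copies 0.69 and 0.68. His3 had the largest and His2B the smallest value in both steps. Relative to the mean of all 10 members on the same arrays, which removes what the copies share, His3:CG31613 was 0.35 further up in wildtype replicate 2 and another 0.33 further up in the mutant. On the same relative scale His2B:CG17949 went 0.30 and then 0.24 the other way.

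**Figure D3:**
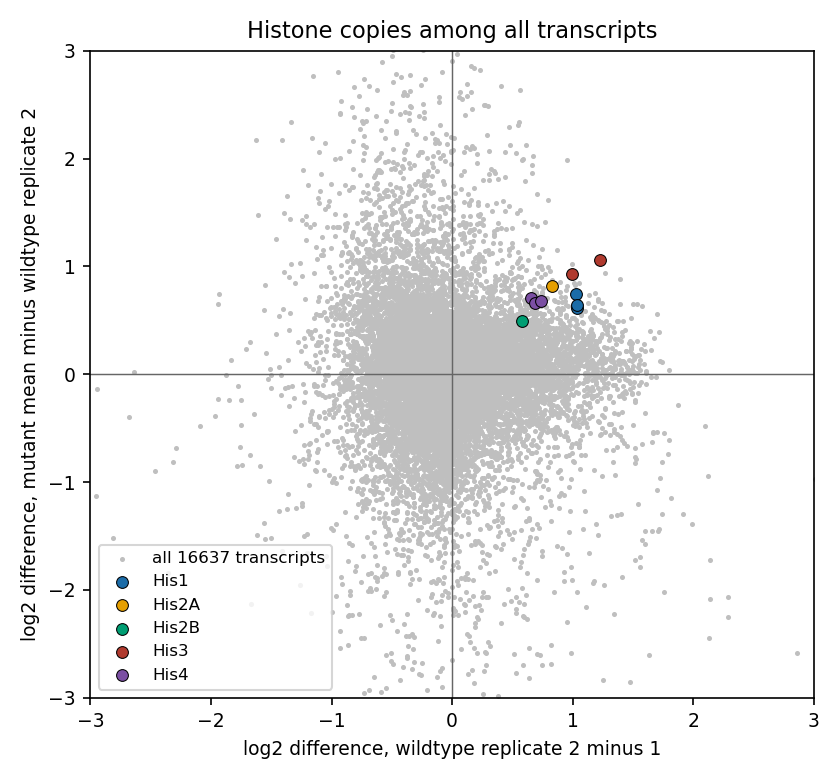
Each point is a transcript, with the log2 difference of wildtype replicate 2 minus replicate 1 on the horizontal axis and that of the mutant mean minus wildtype replicate 2 on the vertical axis, and histone copies coloured by type over all transcripts in grey. All 10 copies lie above 0 on both axes, at 0.58 to 1.23 across and 0.49 to 1.06 up; the axes share wildtype replicate 2, and 125 transcripts beyond 3 on either axis are not shown.

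Across the 8 arrays the copies followed each other closely. The Pearson correlation was 0.994 to 0.998 for the 7 pairs of copies of the same type and 0.984 to 0.999 for the 38 pairs of different types. These values rest mostly on the 3 levels seen in every copy, and they share arrays and possibly probes. On the 4 mutant arrays alone, where no such levels exist, the median was 0.90 for pairs of the same type, with a range of 0.13 to 0.93. For pairs of different types it was 0.74, with a range of -0.28 to 0.99.

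The 4 named transcripts most like each type, by Pearson correlation with the mean of its copies over the 8 arrays among 4369 candidates, came to 15 genes, 4 of them shared by several types. Correlations were 0.9935 to 0.9998. Most are known only by a CG number. For His1 the closest was CG32642, which read 8.89 in wildtype replicate 1, 10.1 in wildtype replicate 2 and 10.8 in the mutant. CG15570 was closest to both His3 and His4, and CG13287 to His2A. The closest gene to His2B was Ccp84Ac, a cuticle protein gene, at 7.89, 8.45 and 8.90 in the same order, and Mlp60A, a muscle LIM protein gene, was the third. The list of His4 also held piwi, which acts in the piRNA pathway that silences transposons, at 7.68, 8.06 and 8.47. Ccp84Ac, Mlp60A and piwi were dim, with every reading below the array medians of 9.36 to 9.43. The lowest signals on the arrays were 6.83 to 6.90. All 15 were higher in the mutant, by 0.60 to 1.58, and had separate wildtype replicates, as choosing them for their likeness to the histone copies required. None of the 15 belongs to the lists of histone processing, assembly or S phase described next.

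Genes that act on histones, in S phase or elsewhere in the cell cycle went both ways. Lists by role held 130 symbols, a few of them synonyms of the same gene, and 20 genes among them were named in the authors' deposited table, 6 above wildtype and 14 below, where 50.1% of all named transcripts were above. In 18 of the 20 wildtype replicate 2 was below replicate 1. It was above in 42.3% of all named transcripts and in 61.2% of those named as higher in the mutant. A named gene had to differ at least 1.5-fold, and 37.9% of named transcripts passed limma (14.8% higher and 23.1% lower). Of the 20, 1 rose and 4 fell (limma, adjusted p under 0.05), and 15 did not pass.

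The list of S phase and DNA replication genes, which also held regulators of other cell cycle steps, had 8 named of 50 symbols. Of these 7 were below wildtype, with a list median of -0.77. Only PCNA, RfC3 and RfC38 act in replication itself, and CycA, CycB, Cdk4, E2f2 and stg are cell cycle regulators, so the list does not stand for S phase alone. RfC3, a subunit of the clamp loader that places the sliding clamp on DNA, read 10.35, 10.38, 10.09 and 10.29 on the wildtype arrays and 9.32, 9.08, 9.12 and 9.01 on the mutant arrays. It fell by 1.14 on the log2 scale (SE 0.14, adjusted p = 0.023), without overlap between genotypes. Cdk4, the kinase partner of cyclin D, went from 12.45 ± 0.08 to 11.41 ± 0.02 (adjusted p = 0.023), and E2f2, a repressor among the E2F factors, from 11.67 ± 0.14 to 10.69 ± 0.06 (adjusted p = 0.030).

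The 1 gene that rose was stg, the phosphatase that triggers entry into mitosis, at 12.48, 12.45, 12.14 and 12.13 on the wildtype arrays and 13.65, 13.43, 13.32 and 13.35 on the mutant arrays (log2 difference 1.14, SE 0.18, adjusted p = 0.035). Its wildtype replicates differed by 0.33, with replicate 2 the lower, which is the opposite order to that of the histone copies. PCNA, the sliding clamp itself, was at -0.82 (adjusted p = 0.093), CycA at -0.60, CycB at -0.70 and RfC38 at -0.72, and these did not pass. For 7 of the 8 genes wildtype replicate 2 was below replicate 1, by differences from -0.07 for PCNA to -0.57 for RfC38. All 10 histone copies were above, as were 42.3% of all named transcripts. The share was 61.2% among those named as higher in the mutant, and so below 42.3% among those named as lower. Since 7 of the 8 genes were lower, nothing is read from their order beside that of the histone copies.

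Histone mRNA processing and the histone locus body, the nuclear body at the histone genes, had 4 named genes of 15 symbols, all below wildtype, with a median of -0.69. Snp, an exonuclease of the family that trims the ends of histone mRNAs in other animals, read 11.74, 11.73, 11.89 and 11.84 on the wildtype arrays and 10.70, 10.75, 10.49 and 10.43 on the mutant arrays. It fell by 1.21 on the log2 scale (SE 0.15, adjusted p = 0.025). The scaffold gene of the locus body, mxc, was at -0.63 (adjusted p = 0.083), the cap-binding gene Cbp80 at -0.74 (adjusted p = 0.055) and Sym, the scaffold of the cleavage complex, at -0.65 (adjusted p = 0.12). None of these 3 passed. Slbp, which binds the histone stem-loop, was not among the named transcripts.

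Among 21 symbols of histone chaperone and nucleosome assembly genes only asf1, a chaperone of H3 and H4, was named, at -0.79 (adjusted p = 0.14). Of 41 symbols of histone-modifying enzymes and readers 7 were named and none passed, with 5 above and 2 below wildtype and a median of 0.66. The lowest adjusted p was that of ash2, a subunit of H3 lysine methyltransferase complexes, at 0.66 (adjusted p = 0.052), followed by the acetyltransferase gene Gcn5 at 1.04 (adjusted p = 0.087). Wildtype replicate 2 was below replicate 1 in all 7 of these genes, by differences from -0.09 to -1.39, the opposite order to that of the histone copies. Of all named transcripts 42.3% were above, and of those named as higher in the mutant, as 5 of these 7 were, 61.2%.

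**Figure D4:**
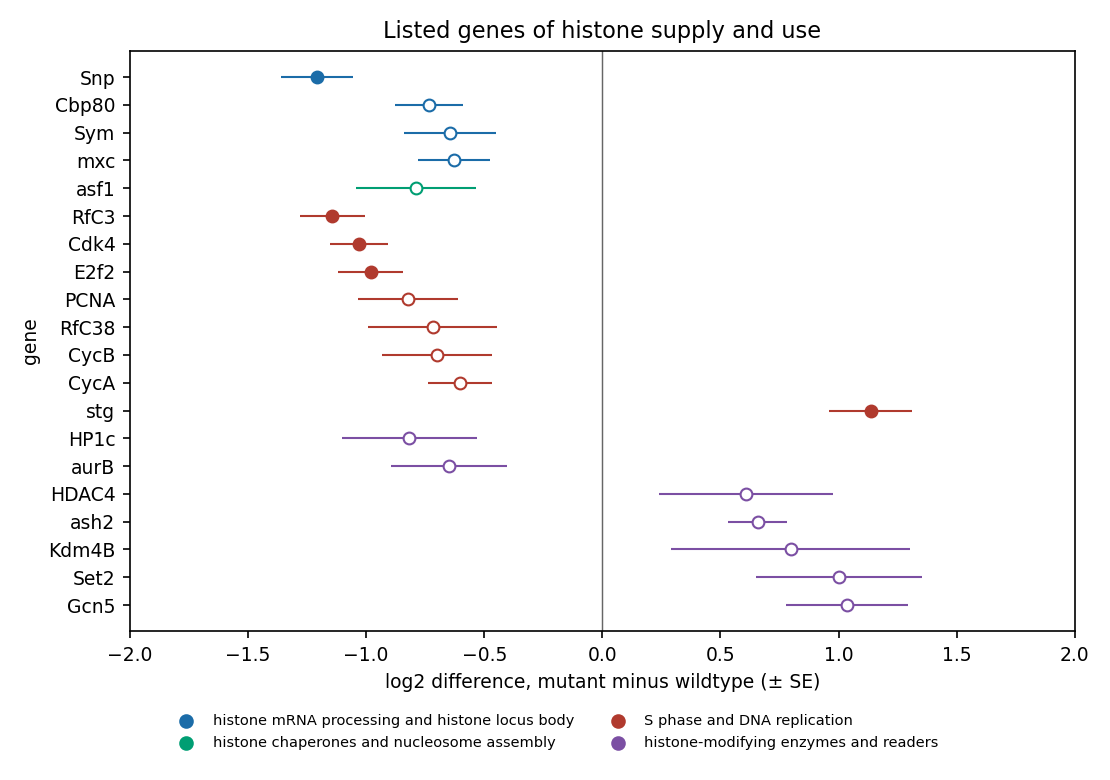
Log2 difference of mutant minus wildtype (horizontal axis, bars are the standard error from limma) of the 20 named genes of histone supply and use, coloured by list, with filled points for an adjusted p under 0.05. Points left of 0 include RfC3, Cdk4, E2f2 and Snp, which passed, and stg is the filled point on the right.

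The state of the samples bears on all of these values. The BEAF-32 transcript read 10.09, 11.94, 10.28 and 10.15 on the wildtype arrays and 8.49, 8.47, 8.40 and 8.41 on the mutant arrays. Every mutant array was below every wildtype array. The means were 10.61 ± 0.57 and 8.44 ± 0.05, and wildtype array 1_2 alone raised the wildtype mean and its SD. Array medians were 9.36 to 9.43 and the highest signals 15.34 to 15.76. Of 14 wing disc marker genes 7 were named, 1 above wildtype and 6 below. In limma wg rose by 1.08 (adjusted p = 0.032) and hh fell by 1.27 (adjusted p = 0.045), and the other 5 did not pass. Among those 5, apterous (ap) read 13.79 in the wildtype and 12.92 in the mutant (adjusted p = 0.052). Markers of other tissues gave signal and differed between genotypes. All 11 named of 12 salivary gland markers were lower, with a summed signal of 17.60 to 17.74 (log2) on the wildtype arrays and 13.18 to 13.33 on the mutant arrays. Of 9 named fat body markers 8 were lower, at sums of 17.19 to 17.23 and 13.29 to 15.13, and all 8 named haemocyte markers were higher, at sums of 13.34 to 14.02 and 15.3 to 15.42. Arrays have no zero, and no marker can be said to be at 0. The part of these tissues in the histone difference was not tested. Between the wildtype replicates, in which histone signals differed by a median of 0.91, the marker medians differed by -0.15 for salivary gland, 0.03 for fat body and -0.77 for haemocytes. Single markers ranged widely around these medians. Salivary gland markers ran from -1.31 (ng3) to 0.24 (Sgs4), fat body markers from -0.87 (apolpp) to 0.30 (Fbp2) and haemocyte markers from -1.11 (Pxn) to 0.95 (NimC1). Between the mutant replicates fat body markers differed by -0.34 (Yp1) to 2.93 (Lsp1gamma), and the histone copies lay within 0.16 of each other.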

How the data were processed

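The unit of the deposited values is log2 signal, 1 per transcript and array. The submitters' processing notes name RMA and Partek but no versions, and the sources used here give neither the probe design nor the genome build. The authors' deposited table holds a linear ratio of wildtype over mutant for each listed transcript, and gene names come from it. Of its 3850 genes, 2541 were found in RefSeq under the same symbol, 1079 as a synonym and 230 in neither way, and 12258 transcripts have no name here. Member folds computed from the 8 arrays matched that table to within 6.1e-05. Signs are mutant minus wildtype.

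Arrays with the same first number were averaged within genotype. limma 3.58.1 in R 4.3.3 (lmFit, eBayes) compared the genotypes over 16637 transcripts, with Benjamini-Hochberg adjustment, a threshold of 0.05, 2 residual and 2.23 prior degrees of freedom. For list genes with several transcripts the one with the highest mean was used. The limma fit was also run on simulated data with known changes. Named were all members, up to 4 passing genes per list (2 by p where none passed) and the 4 most similar transcripts per type; other list genes and the genes of the sample checks were named after their values were seen. Members and lists were chosen with earlier results of these data known. Python 3.11.15 with matplotlib 3.10.9 drew the figures. With no probe-level signals, the number of arrays limits the precision.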

Additional observations from a re-analysis of the deposited data

Results flagged for a closer look

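On mutant array 1_2 the signal of His1:CG31617 was 14.22, set apart below the other 3 mutant arrays by a gap that was 0.852 of the range of the group. On the same array His4:CG33891 read 14.08, with a gap of 0.832 of the range. Both gaps exceed the critical value of Dixon's test for 4 values. Chance singles out about 1 in 20 groups of independent values. Of the 20 groups looked at, the 10 wildtype groups each held 2 low and 2 high arrays and could not be singled out in this way, and the copies may share probes, so that rate does not apply to these 2 values. Without mutant replicate 1_2 the median log2 difference of the 10 members was 1.16, against 1.14 with it.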

How the results depend on the processing

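The median log2 difference of the 10 histone copies was 1.14 and stayed within 0.69 to 1.65 when a replicate or an array was left out. The extremes were set by leaving out wildtype replicate 1 (0.69) and wildtype replicate 2 (1.65). With the arrays quantile-normalized again the median was 1.21. All 10 copies stayed above 0 under every alternative run. Every run used the contrast that chose the members, and runs that changed only the error model left the differences as they were. The shared sign therefore says nothing about how stable the direction is.

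Over all transcripts 647 were called higher and 1012 lower. Averaging by the second number in place of the first gave 7148 and 5744, and 8 separate arrays gave 4203 and 3963; by construction both treat arrays that resemble each other as separate samples or leave the step between replicates out of the error. A random block on the first number gave 1730 and 2178. Without wildtype replicate 2 the counts were 2685 and 2648, without mutant replicate 2 they were 3 and 18, and without mutant replicate 1 limma called 0 and 0 (2353 at an unadjusted p under 0.05). Leaving out a whole replicate leaves its genotype with 1 value that is assumed to vary like the other genotype, and all the spread then comes from the other pair, so these counts say little about stability. Leaving out 1 replicate or array gave 0 to 2685 higher and 0 to 2648 lower. Among the 20 genes of histone supply and use, 1 rose and 4 fell. The counts were 6 and 14 with the second number averaged, 4 and 14 with 8 separate arrays, 4 and 12 with a random block, 3 and 7 with an intensity trend, 2 and 5 with quantile-normalized arrays and 2 and 5 without dim transcripts, and 0 to 4 and 0 to 8 when a replicate or array was left out. No direction was reversed for any of these genes, which were named for a difference of at least 1.5-fold in the same contrast. The cause of the changes in the counts was not tested.

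The first number is shared by the genotypes. The differences between replicates 1 and 2 correlated at 0.30 between genotypes over 16637 transcripts, and the labels do not say that the number pairs samples. With the first number as a replicate block limma called 1011 higher and 1383 lower, and 1 and 9 of the 20 related genes.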
